A study of Mus musculus with 6 samples.

Results

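The genes described here encode the enzymes that build, sulfate and trim heparan sulfate, together with the syndecans and glypicans that carry it on the cell surface. Of 38 listed genes, all 38 had at least 1 probe named through its RefSeq accession, 59 probes in all, among 22911 named genes on the array. In 29 of them a probe was well above background, as flagged by the scanner software, on all 3 arrays of at least 1 group, and these were tested. Of the 9 genes without a tested probe, 6 were well above background on 0 of the 6 arrays. The rule names the genes and sets no threshold on measured values. The genes were, however, chosen with earlier results of these data known. Their shares beside those of all genes are therefore descriptions and not tests.

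Endothelial cells without CD45 and with CD31 on their surface were sorted from the small intestine of female mice. Vascular endothelial cells (VECs) lacked CD90 and lymphatic endothelial cells (LECs) carried it. The mice were untreated as far as the labels tell, which give neither strain nor age. Each group comprised 3 samples of at most 10000 sorted cells, VEC 2, 3 and 4 and LEC 6, 7 and 8, each hybridized to a one-color Agilent array. Nothing in the sources tells whether separate mice were behind the samples of a group. The p-values then measure the spread between these samples, which may be technical. The description field of the LEC samples reads VECs, and the groups follow the titles and source names. All 7 lymphatic markers checked, among them Lyve1, Prox1 and Pdpn, were higher in the LEC samples, and all 6 blood vascular markers, among them Plvap and Flt1, were lower. The 7 include Thy1, the gene of CD90, whose direction was set by the sort. Of 6 genes of endothelium in general, Cldn5 was higher in LECs and Pecam1, the gene of CD31, Cdh5, Tek and Kdr were lower. Tie1 missed the threshold given below. Values are normalized log2 signals, that is, the log2 intensity minus the 75th percentile of the array. A probe's signal depends on its sequence, so levels are compared between samples and never between genes.

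Heparan sulfate is a long sugar chain that is attached to a core protein through a short linkage sugar and elongated by the exostosins. Enzymes of the Golgi then replace acetyl with sulfate groups, convert glucuronic to iduronic acid and add further sulfate, and these sulfated stretches bind growth factors, chemokines and their receptors. Endothelial heparan sulfate is known for holding VEGF and chemokines at the vessel wall, and in lymphatic vessels for presenting VEGF-C and CCL21.

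Of the 29 tested genes, 10 had a higher signal in LECs and 15 a lower one, while 4 missed the threshold (limma, Benjamini-Hochberg adjusted p under 0.05 over all probes). That is 34.5% and 51.7% of the genes, beside 34.9% and 32.0% of the 14971 named genes tested, and 86.2% in either direction, beside 66.9%. The 3 values of one group did not overlap those of the other in 10 genes toward LECs and 15 toward VECs, beside 39.1% and 35.9% of all tested genes. The fitted differences were over 4-fold in 11 of the 29 genes, 5 higher and 6 lower, beside 12.1% of all tested genes. Among the 11, Gpc3 and Gpc4 were dim, and only bounds of at least 2.34-fold and 2.81-fold can be given. With normexp background correction, an alternative described below, these bounds do not hold. Gpc1, Gpc2, Gpc3, Gpc4, Hpse, Sdc1 and Sdc4 then fell under 4-fold. The 12.1% was taken without that correction. The median log2 difference, LEC minus VEC, was -0.34, beside 0.02 over all tested genes, and the median size without sign was 0.89, beside 0.46. In these sorted pools, fewer cells of a kind and less RNA per cell cannot be told apart. Without scaling between arrays, which moves the median difference over all tested probes from -0.03 to 0.20, 10 genes were higher and 10 were lower. Over all probes, 31.2% were higher and 32.8% lower with scaling (10537 and 11066 probes), against 12922 and 6916 probes without it. The 5 calls lost then, Ext1, Extl1, Extl3, Glce and Sdc3, all had differences under 0.6 on the log2 scale.

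**Figure D1:**
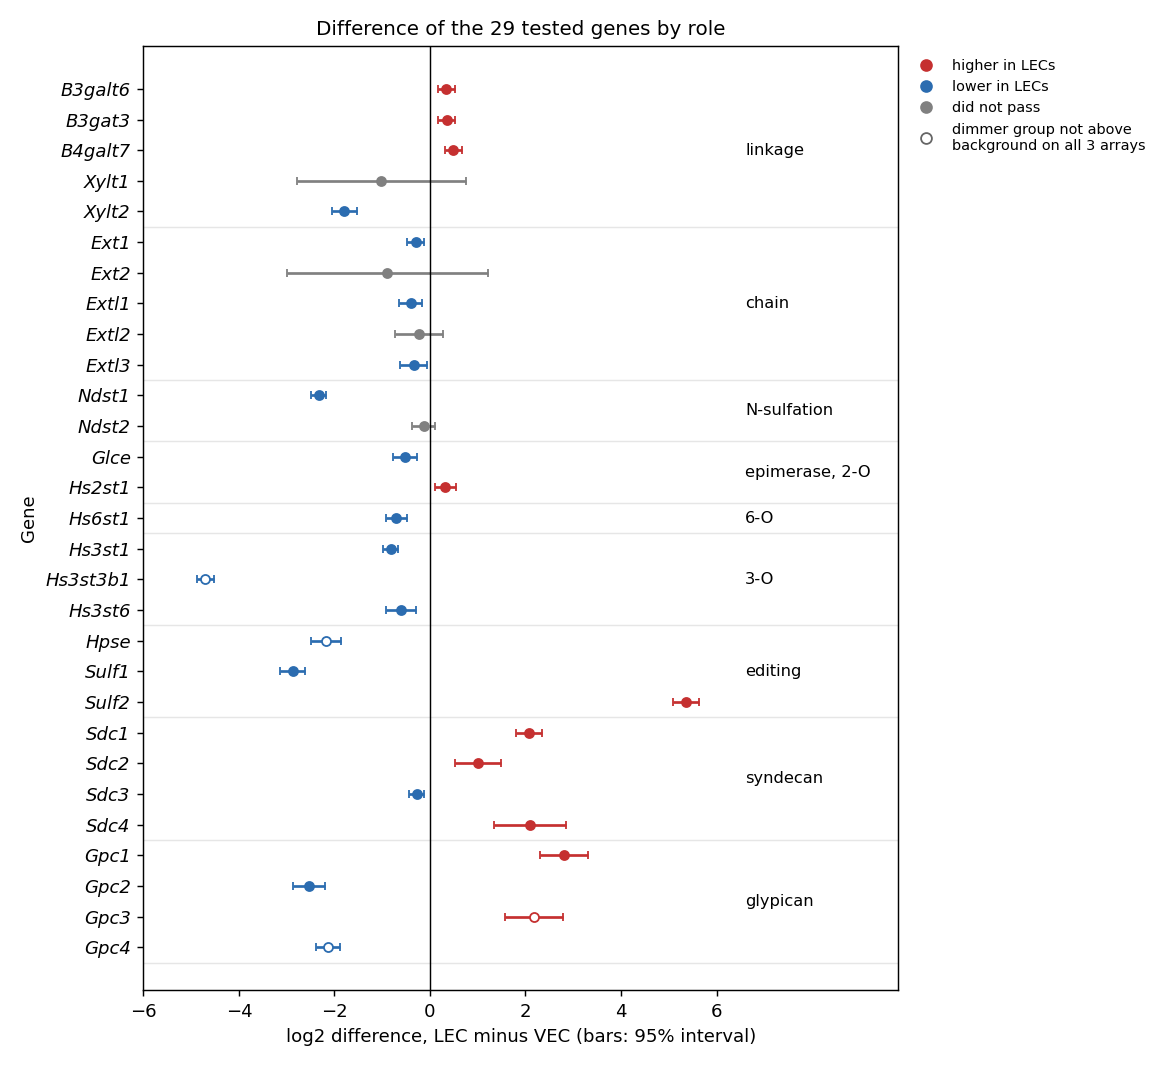
log2 difference, LEC minus VEC, of the 29 tested heparan sulfate genes, grouped by role. Points are estimates from limma with 95% intervals, red for genes higher in LECs, blue for lower ones and gray for those that did not pass. Open points mark genes whose dimmer group was not well above background on all 3 arrays. Sulf2, at 5.36, and Hs3st3b1, at -4.70, lie farthest from 0.

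Promoter sequences are shown for the 2 genes with the largest differences, Sulf2 and Hs3st3b1, and for 1 core protein toward each side, Sdc1 and Gpc2. Each is the 250 bases before the annotated start, 5′ to 3′ on the strand of the gene, from RefSeq on GRCm38.p6. Capitals mark the GC box GGGCGG or its complement, to which SP1-type factors bind. The regions are chr2:166155684-166155933 (minus strand) for Sulf2, the first of 2 listed starts, chr12:8771146-8771395 (plus) for Sdc1, chr11:63922285-63922534 (minus) for Hs3st3b1 and chr5:138279938-138280187 (minus) for Gpc2.
Sulf2: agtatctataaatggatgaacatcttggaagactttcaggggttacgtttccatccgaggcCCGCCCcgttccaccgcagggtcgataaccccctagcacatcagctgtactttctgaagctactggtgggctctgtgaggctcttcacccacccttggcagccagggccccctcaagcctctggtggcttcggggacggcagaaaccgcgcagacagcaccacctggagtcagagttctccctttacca
Sdc1: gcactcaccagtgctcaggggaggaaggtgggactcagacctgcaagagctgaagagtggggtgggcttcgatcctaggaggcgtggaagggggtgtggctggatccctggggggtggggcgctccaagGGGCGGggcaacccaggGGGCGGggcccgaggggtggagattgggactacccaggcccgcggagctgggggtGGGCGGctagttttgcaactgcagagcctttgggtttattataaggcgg
Hs3st3b1: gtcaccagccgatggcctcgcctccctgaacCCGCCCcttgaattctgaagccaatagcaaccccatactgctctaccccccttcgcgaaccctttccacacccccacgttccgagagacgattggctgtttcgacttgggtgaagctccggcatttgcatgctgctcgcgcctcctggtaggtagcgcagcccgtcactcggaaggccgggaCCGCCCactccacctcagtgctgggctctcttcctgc
Gpc2: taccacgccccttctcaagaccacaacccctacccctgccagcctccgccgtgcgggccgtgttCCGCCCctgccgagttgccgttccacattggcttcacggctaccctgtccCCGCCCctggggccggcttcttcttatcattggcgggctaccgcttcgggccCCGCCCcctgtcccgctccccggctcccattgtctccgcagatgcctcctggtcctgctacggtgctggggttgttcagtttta
Sulf2 held 1 GC box in this window, Hs3st3b1 2, and Sdc1 and Gpc2 3 each, so the box was present in promoters of genes that differed in opposite directions. A promoter was listed for 28 of the 38 genes, and 19 of these (67.9%) held a GC box, beside 32.9% of 27025 annotated promoters of the same length. Those were the first listed for each annotated gene, with no filter on gene type or expression, so the 2 shares are not of like genes. Among genes with a promoter, the box was found in 5 of 8 that were higher in LECs and 8 of 10 that were lower. The ETS core CCGGAA was found in 3 of the 28 (12.2% of all promoters). The site AGATAA, bound by GATA factors, was found in 1 (10.3%) and the E box CACGTG in 2 (6.05%). All 4 motifs were searched on both strands. In the 4 windows printed, only the GC box was found, so no matches of different motifs overlapped, and a match is a description of letters and not of a bound site.

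The sulfatase genes Sulf2 and Sulf1 differed in opposite directions. SULF1 and SULF2 are secreted enzymes that remove 6-O-sulfate groups from finished chains outside the cell. The normalized log2 signal of Sulf2 was -2.18, -2.55 and -2.28 in VEC 2, 3 and 4 and 3.06, 2.95 and 3.06 in LEC 6, 7 and 8. Every LEC sample lay far above every VEC sample, and the LEC mean of Sulf2 was 41.1-fold that of VECs (5.36 ± 0.11 on the log2 scale, difference ± standard error, limma adjusted p = 7.3e-07). Sulf1 gave 2.80, 2.74 and 3.00 in VECs and -0.03, 0.12 and -0.15 in LECs. The groups were separated the other way, and Sulf1 was 7.32-fold higher in VECs (-2.87 ± 0.11 on the log2 scale, limma adjusted p = 4.9e-06). On all 6 arrays both signals exceeded background. Within each array, the Sulf2 signal minus the Sulf1 signal was between -5.29 and -4.98 in VECs and between 2.83 and 3.21 in LECs, a relative shift of 301-fold, from which scaling between arrays cancels. With normexp background correction, an alternative described below, this shift was 138-fold and the log2 difference of Sulf2 alone was 4.51. This pair and the other pairs below were picked after their values were seen.

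Heparanase, the enzyme that cuts the chain internally and releases bound factors, is encoded by Hpse. Its signal was -2.12, -1.93 and -2.21 in VECs and -4.16, -4.14 and -4.50 in LECs, where 1 of 3 arrays was well above background. Hpse was thus higher in VECs by at least 4.31-fold (limma adjusted p = 3.2e-05). Such a bound compares the brighter mean with the dimmer one after raising dim signals to the level at which that array begins to exceed background. Bounds of this kind, here and below, hold only without normexp correction, under which a difference can be smaller. When the median signals were corrected by normexp instead, with an offset of 50, the log2 difference of Hpse was -0.90 in place of -2.18.

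Of the 4 genes for N-sulfation, Ndst1 was lower in LECs, Ndst2 did not pass and the other 2 were not tested. NDST enzymes remove acetyl groups and add sulfate, the step on which the later ones depend. Ndst1 gave 2.73, 2.73 and 2.64 in VECs and 0.44, 0.34 and 0.34 in LECs. The groups lay apart, and Ndst1 was 5.02-fold higher in VECs (-2.33 ± 0.066 on the log2 scale, limma adjusted p = 1.8e-06). Its other 2 probes passed in the same direction, one with a log2 difference of -1.29 and one, above background on 2 of 3 LEC arrays, by at least 4.35-fold. The isoenzyme Ndst2 ranged from 0.61 to 0.87 in VECs and from 0.53 to 0.72 in LECs. These ranges overlapped, and its difference was -0.13 with a 95% interval from -0.37 to 0.10 (limma adjusted p = 0.25). On each array, Ndst1 minus Ndst2 was at least 1.84 in VECs and at most -0.09 in LECs, so Ndst1 relative to Ndst2 was 4.57-fold lower in LECs. The sign of such a difference depends on the 2 probes and does not rank the genes. Ndst3 was well above background on 1 VEC array and Ndst4 on none of the 6.

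The epimerase gene Glce, whose enzyme turns glucuronic into iduronic acid, was higher in VECs by 1.43-fold (limma adjusted p = 0.0049), and its other 2 probes also passed toward VECs. It was at 1.17, 1.11 and 1.41 against 0.81, 0.63 and 0.69, with no overlap, and missed the threshold without scaling or with a block for the slide row (limma adjusted p = 0.15 and 0.058). Hs2st1, which encodes a sulfotransferase acting on uronic acid, was 1.25-fold higher in LECs by its brightest probe, with a second probe in the same direction (limma adjusted p = 0.021 and 0.011). Its 3 LEC values, 1.67, 1.40 and 1.53, lay close above the VEC values of 1.16, 1.28 and 1.21. Without VEC replicate 2, without LEC replicate 8 or without a filter on dim probes this call was lost (limma adjusted p = 0.073, 0.059 and 0.066). Among the 6-O-sulfotransferases, which add the group that the sulfatases remove, only Hs6st1 was tested. It was 1.63-fold higher in VECs, at 3.84, 3.94 and 3.82 against 3.28, 3.00 and 3.19 (limma adjusted p = 8.6e-04). Hs6st2 was well above background on 1 VEC array by one probe and on 1 LEC array, LEC 6, by the other. Hs6st3 was at background on all 6.

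All 3 tested 3-O-sulfotransferase genes were higher in VECs. These enzymes add a rare late sulfate group, and HS3ST1 is known for making the chain that binds antithrombin. Hs3st3b1 gave 0.79, 0.86 and 0.93 in VECs and -3.76, -3.93 and -3.83 in LECs, where 2 of 3 arrays were well above background. With no overlap between the groups, Hs3st3b1 was at least 26.0-fold higher in VECs (-4.70 ± 0.075 on the log2 scale, limma adjusted p = 5.0e-07). With normexp correction this difference was -3.10, smaller in size than that bound. Hs3st1 was 1.77-fold higher, at 1.22, 1.09 and 1.10 against 0.36, 0.27 and 0.30, and its second probe differed by -0.39 (limma adjusted p = 1.3e-04 and 0.0086). Hs3st6 was higher in VECs by 1.52-fold (limma adjusted p = 0.0073), and its other probe was above background on LEC 6 alone. With normexp correction the log2 difference of Hs3st6 was -0.36 in place of -0.60. Hs3st2, Hs3st3a1 and Hs3st5 were at background on all 6 arrays. Hs3st3a1 and Hs3st3b1 encode near-identical catalytic domains and lie on chromosome 11 with 1 protein-coding gene between them.

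**Figure D2:**
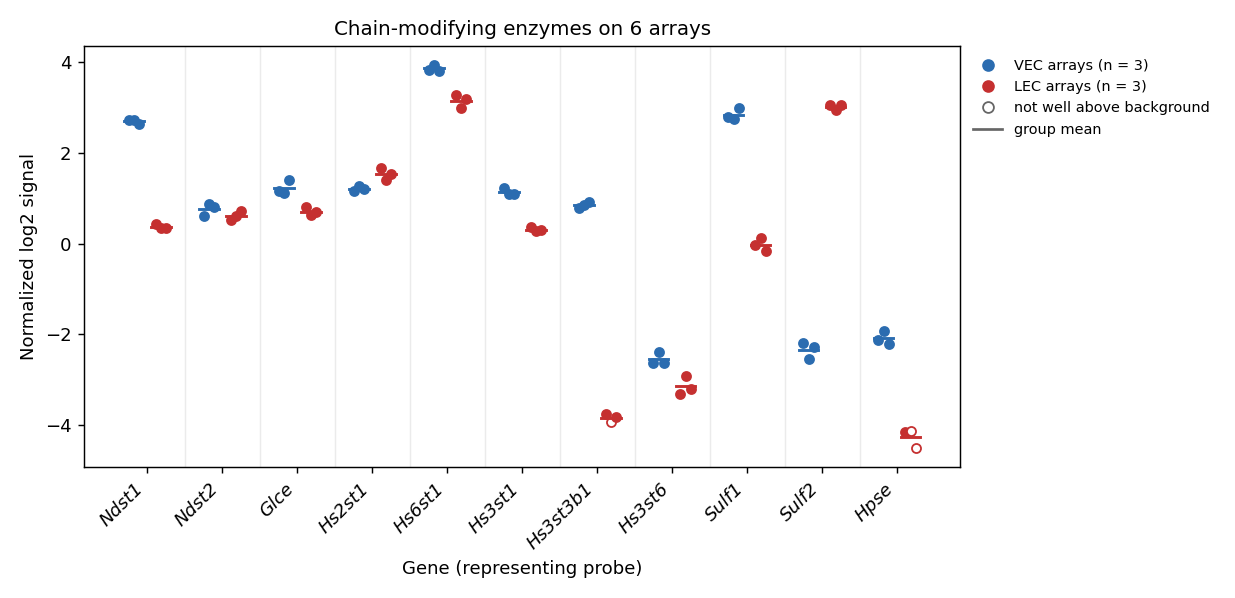
Normalized log2 signal of 11 chain-modifying genes for VEC (blue, 3 arrays) and LEC (red, 3 arrays) samples, with group means as lines and open points not well above background. Sulf2 lies at 3.02 on average in LECs and -2.34 in VECs, while Ndst1, Hs3st3b1, Sulf1 and Hpse lie higher in VECs.

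Of the 5 genes for the linkage sugar, 3 were higher in LECs, 1 was lower and 1 did not pass. Xylosyltransferases attach the first sugar to the core protein, and Xylt2 was 3.47-fold higher in VECs, at 3.54, 3.62 and 3.27 against 1.74, 1.59 and 1.70 (log2 difference -1.80, limma adjusted p = 3.3e-05). Its second probe passed in the same direction with -1.32. Xylt1 varied widely among VECs, at -1.07, -2.93 and -4.09, against -3.70, -3.58 and -3.86 in LECs, and did not pass (95% interval of the log2 difference from -2.79 to 0.75). Its estimate of -1.02 rested on VEC 2 and was -0.21 without it, while without VEC replicate 4 it passed at -1.71 (limma adjusted p = 0.046). The 3 enzymes that finish the linkage sugar went the other way. B4galt7 was 1.41-fold higher in LECs, B3galt6 1.27-fold and B3gat3 1.27-fold (limma adjusted p = 0.0019, 0.0069 and 0.0073), with no overlap of the groups in any of them. With normexp correction the log2 difference of B4galt7 was 0.30 in place of 0.49. Xylt2 relative to B4galt7 on the same array was 4.89-fold lower in LECs.

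Of the 5 exostosin and exostosin-like genes, whose enzymes act in the growth of the chain, 3 were slightly lower in LECs, 0 were higher and 2 did not pass. Ext1, a subunit of the polymerase, was at 0.26, 0.30 and 0.25 in VECs and 0.08, -0.12 and -0.04 in LECs (log2 difference -0.29, limma adjusted p = 0.013). Extl1 and Extl3 differed by -0.41 and -0.34 (limma adjusted p = 0.014 and 0.044). These calls are near the limit of the comparison. Extl3 did not pass under 9 of 20 alternatives and Ext1 under 4, among them without VEC replicate 3 (limma adjusted p = 0.053). Ext2, the partner of Ext1, was at -1.99 and -2.28 in VEC 2 and 4, between -2.07 and -1.83 in LECs, and at 1.0 in VEC 3. Its difference of -0.89 (95% interval -3.00 to 1.21) turned to 0.15 without VEC 3. Extl2 ranged from 0.62 to 1.13 in VECs and from 0.43 to 1.05 in LECs, and its interval ran from -0.74 to 0.28.

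Of the 4 syndecans, transmembrane carriers that also bear chondroitin sulfate in part, 3 were higher in LECs and 1 in VECs. Sdc1 was at -1.15, -1.21 and -1.04 in VECs and 1.14, 0.75 and 0.94 in LECs. The groups were well apart, and Sdc1 was 4.21-fold higher in LECs (2.08 ± 0.11 on the log2 scale, limma adjusted p = 2.3e-05). Its other 2 probes passed as well, one at 2.17 on the log2 scale and one, above background on 1 VEC array, at 3.61-fold or more. Sdc4, a syndecan of focal adhesions, was at -3.47, -3.90 and -3.35 against -1.43, -0.94 and -2.08, with no overlap, and was higher in LECs by 4.26-fold (limma adjusted p = 0.0016). Sdc2 was 2-fold higher, at -3.38, -3.84 and -3.38 against -2.22, -2.57 and -2.82 (limma adjusted p = 0.0052). With normexp correction the log2 differences of Sdc4 and Sdc2 were 1.06 and 0.30, in place of 2.09 and 0.998, and both still passed. Sdc3 was 1.21-fold higher in VECs, at 2.40, 2.50 and 2.51 against 2.25, 2.17 and 2.16 (limma adjusted p = 0.011). This call was lost without scaling and when the slide row was blocked (limma adjusted p = 0.73 and 0.10). Relative to Sdc3 on the same array, Sdc1 was 5.11-fold higher in LECs.

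Glypicans are held to the outer membrane by a lipid anchor and carry mainly heparan sulfate. Of the 4 that could be tested, 2 were higher in LECs and 2 in VECs. Gpc1 was at -2.74, -3.20 and -2.61 in VECs and 0.20, 0.03 and -0.35 in LECs, which made it 7-fold higher in LECs (2.81 ± 0.20 on the log2 scale, limma adjusted p = 7.5e-05). Gpc2 was at -1.14, -0.98 and -1.42 against -3.90, -3.60 and -3.65, and was 5.79-fold higher in VECs (-2.53 ± 0.14 on the log2 scale, limma adjusted p = 2.4e-05). On all 6 arrays both signals exceeded background, and neither pair of groups overlapped. With normexp correction the log2 differences were 1.78 and -1.40, and the shift of one against the other was 9.08-fold in place of 40.5-fold. Gpc1 minus Gpc2 lay between -2.22 and -1.19 on VEC arrays and between 3.30 and 4.09 on LEC arrays.

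Gpc3 and Gpc4 are neighbors on chromosome X, with 0 annotated protein-coding genes between them, and they differed in opposite directions. Gpc3 was well above background on 0 VEC arrays, at -5.70, -6.19 and -5.17, and was on all LEC arrays, at -3.47, -3.51 and -3.56. Its LEC mean was thus at least 2.34-fold that of VECs (limma adjusted p = 5.3e-04). Gpc4 was at -3.03, -3.05 and -2.91 in VECs and above background on 0 LEC arrays, at -5.07, -5.01 and -5.32, so that it was higher in VECs by at least 2.81-fold (limma adjusted p = 1.3e-05). A second Gpc4 probe gave at least 2.13-fold in the same direction. These bounds are small because both genes were dim where they were measured. Normexp correction left log2 differences of 0.30 for Gpc3 and -0.73 for Gpc4, both smaller in size than the bounds. Gpc5 and Gpc6, neighbors on chromosome 14, were not tested: Gpc5 was well above background on 2 VEC arrays and 1 LEC array, and Gpc6 on 0 of the 6.

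**Figure D3:**
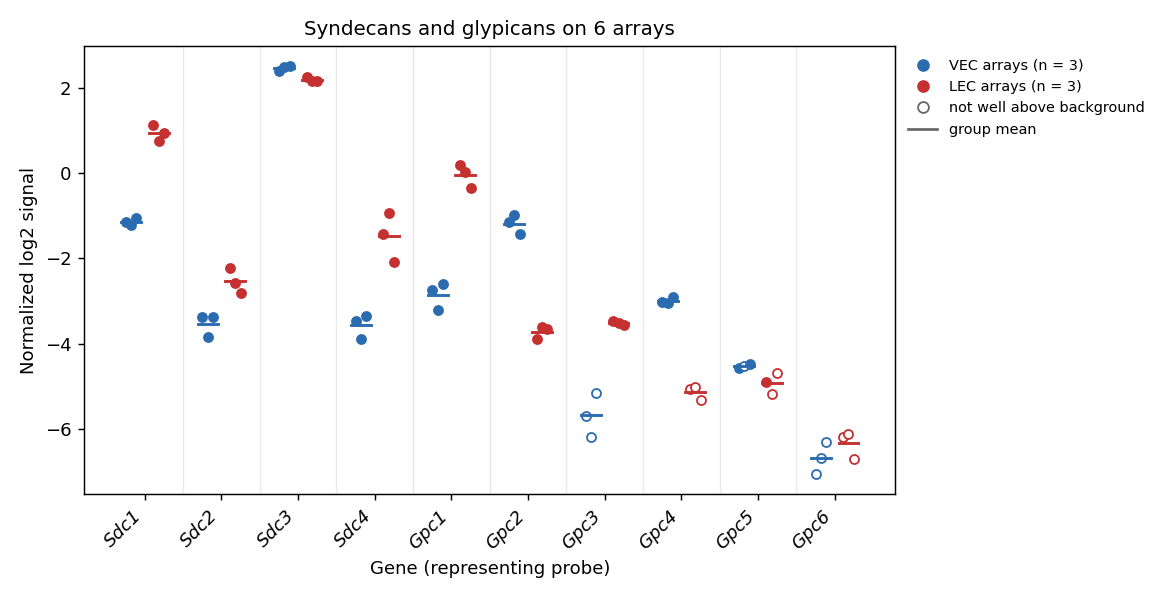
Normalized log2 signal of the 4 syndecans and 6 glypicans for VEC (blue, 3 arrays) and LEC (red, 3 arrays) samples, with group means as lines and open points not well above background. Sdc1, Sdc2, Sdc4, Gpc1 and Gpc3 lie higher in LECs, and Gpc2 and Gpc4 lie higher in VECs.

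The genes that supply the pathway were read from a wider list, for which, as for the lists below, the background is 34.9% of all tested genes higher in LECs and 32.0% lower. Sulfotransferases draw on the donor PAPS, which the synthases PAPSS1 and PAPSS2 make in the cytosol. Papss2 was at 3.55, 3.58 and 3.64 in VECs and -1.40, -0.42 and -1.65 in LECs. It was 26.8-fold higher in VECs (log2 difference -4.75, limma adjusted p = 5.0e-05), and a second probe, above background on 0 LEC arrays, gave at least 11.2-fold. Papss1 differed in the same direction by 1.19-fold (limma adjusted p = 0.038), and Slc35b3, a transporter of the donor into the Golgi, did not pass (log2 difference -0.06). Of 11 measured genes for donors, their transport and the linkage kinase, 4 rose toward LECs, 2 toward VECs and 5 missed the threshold. The higher ones included the xylose phosphatase Pxylp1, at least 2.40-fold, Bpnt2, a Golgi phosphatase that clears the spent donor, 1.39-fold, and Ugdh, which makes UDP-glucuronic acid, 1.23-fold (limma adjusted p = 0.018, 0.0025 and 0.011). A second Ugdh probe did not pass (limma adjusted p = 0.061). For Pxylp1 a second probe, well above background on 1 array of each group, was not tested, and its measured log2 difference was -0.467.

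Other proteins that can carry heparan sulfate also split. Of 10 listed, 8 were tested, with 2 toward LECs, 4 toward VECs and 2 that missed the threshold. Col18a1, which encodes a basement membrane collagen, was at 1.41, 1.24 and 1.36 in VECs and 5.16, 4.98 and 5.06 in LECs, a 13.3-fold difference (limma adjusted p = 8.0e-07). Hspg2, the gene of perlecan in the same membrane, was at 5.85, 5.90 and 5.81 against 3.02, 2.99 and 3.15 and was higher in VECs by 6.95-fold (limma adjusted p = 1.3e-06). Agrn, the gene of agrin, differed by -0.01 (limma adjusted p = 0.94). The co-receptor genes Tgfbr3 (1.76-fold higher in LECs), Nrp1 (39.8-fold higher in VECs) and Cd44 (5.86-fold higher in VECs) passed as well, as did Srgn, the proteoglycan gene of secretory granules, 15.8-fold higher in VECs (limma adjusted p at most 0.0032). Spock1 did not pass (log2 difference -0.01), Spock2 was well above background on 2 arrays of each group, and Spock3 on none.

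**Figure D4:**
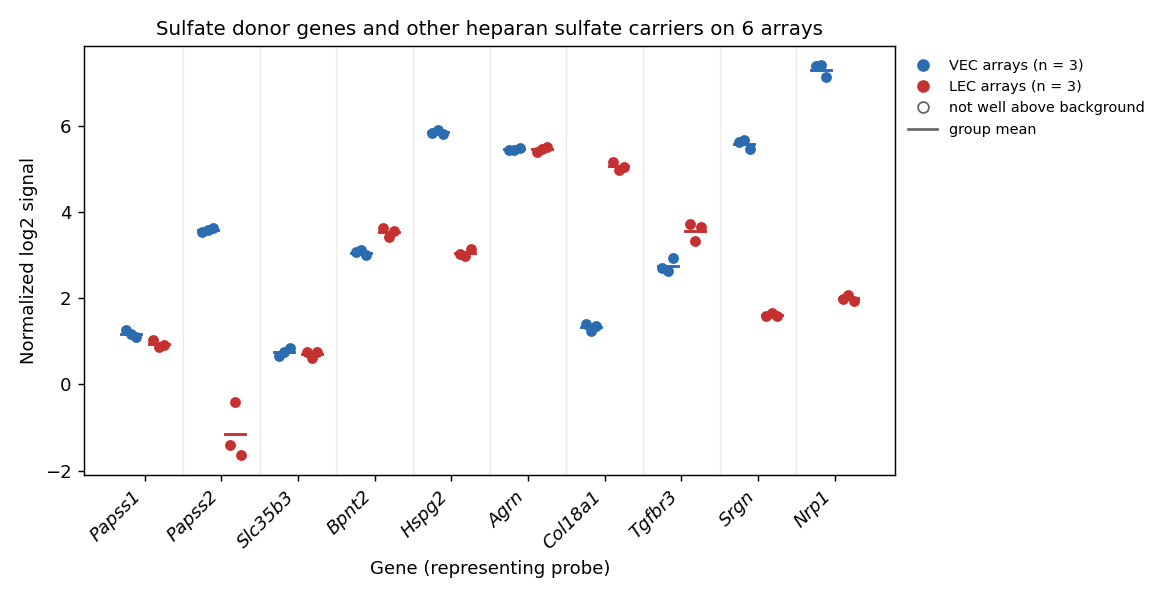
Normalized log2 signal of sulfate donor genes and other heparan sulfate carriers for VEC (blue, 3 arrays) and LEC (red, 3 arrays) samples, with group means as lines; every point was well above background. Papss2, Hspg2, Srgn and Nrp1 lie higher in VECs, Col18a1 lies higher in LECs, and Agrn does not separate the groups.

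Of 7 tested genes for lysosomal breakdown of the chain, 2 passed toward LECs, 2 passed toward VECs and 3 missed the threshold, beside 66.9% of all tested genes called. The sulfatase gene Arsg was 1.76-fold and Naglu, the gene of a glucosaminidase, 1.34-fold higher in LECs, and Gusb and Ids were 1.39-fold and 1.22-fold higher in VECs (limma adjusted p at most 0.023). Idua, Sgsh and Hgsnat had differences of -0.17, -0.11 and 0.12, and the probe of Hpse2 stayed at background. Of 8 genes listed with the core proteins, not all of them known partners, 3 passed toward LECs, 4 toward VECs and 1 missed the threshold. That is again beside 66.9% of all tested genes called. Sdcbp2 and Sdcbp, which encode the syntenins that bind syndecan tails, gave 8.43-fold and 1.48-fold more signal in VECs (limma adjusted p = 2.1e-05 and 2.9e-04), as were the shedding protease gene Adam17 (1.20-fold) and Notum (1.35-fold), which encodes an enzyme known to cut glypican anchors and WNT lipids and whose second probe did not pass (limma adjusted p = 0.13). Adam10 (1.66-fold), the tail-binding scaffold gene Cask (1.65-fold) and Pofut2 (1.26-fold) were higher in LECs, and a second Pofut2 probe passed in the opposite direction. Gipc1 differed by 0.19 and did not pass.

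Chondroitin sulfate shares the linkage sugar with heparan sulfate and is then built by its own enzymes. Of 16 genes of that branch, 13 were tested, with 3 toward LECs, 7 toward VECs and 3 that missed the threshold, and a median log2 difference of -0.60. Over all tested genes 34.9% were higher and 32.0% lower, with a median of 0.02. By fitted log2 difference, the first toward VECs were the sulfotransferase genes Chst7 (9.04-fold), Chst3 (at least 4.05-fold, with 1 of 3 LEC arrays above background) and Chst11 (4.55-fold), followed by the polymerizing factor gene Chpf (4.06-fold). Toward LECs they were Chst15 (1.74-fold), Chst12 (1.72-fold) and Csgalnact2 (1.30-fold), each with a limma adjusted p of 0.0085 or less. Whether the 2 branches differ from each other was not tested.

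Some markers of other cells also differed between the groups, in both directions. Syndecan-1 also marks plasma cells and epithelium, and syndecan-4, glypican-1 and glypican-3 occur in fibroblasts and glia. Of 7 B and plasma cell genes, Mzb1, Tnfrsf17 and Ms4a1 were at background on all 6 arrays. Pou2af1 was higher in LECs by 5.45-fold (limma adjusted p = 3.9e-04), Cd79b was lower in LECs, and Jchain, above background on 5 of 6 arrays, did not pass (limma adjusted p = 0.54). Their summed normalized signal was 0.300 to 0.730 in VECs and 0.633 to 0.770 in LECs. Of 10 epithelial genes, Fabp2 (5.43-fold) and Lgals4 (2.26-fold) were higher in LECs, Vil1 was lower (4.17-fold), Krt8 and Krt18 did not pass, and Epcam was well above background on 1 array of each group. The sum was 3.78 to 6.27 in VECs and 7.12 to 8.38 in LECs.

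Such sums can rest on 1 gene, so they were also taken without the gene that differed most in linear signal, an addition made after the sums were seen. Without Lgals4 the epithelial ranges overlapped, at 1.56 to 3.71 and 2.14 to 2.68. The B and plasma cell ranges overlapped with Pou2af1 and also without it, at 0.223 to 0.69 in VECs and 0.264 to 0.474 in LECs. For 10 fibroblast genes the sum was 3.59 to 4.17 in VECs and 2.64 to 3.41 in LECs, but without Pi16, which was 6.86-fold higher in VECs, it was 0.973 to 1.67 and 2.28 to 3.06. Dcn, Col3a1 and Col1a1 were higher in LECs (log2 difference 2.66, 1.48 and 0.74), while Pdgfra was above background on 1 VEC array and 0 LEC arrays. All 5 glial genes were higher in LECs, with a sum of 0.393 to 0.565 against 2.67 to 3.32. Without S100b it was 0.336 to 0.45 in VECs and 1.59 to 2.03 in LECs.

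Of 10 myeloid genes, 9 were tested, with 6 higher and 2 lower in LECs. The sum over all 10 was 78.6 to 84.2 in VECs and 70.2 to 75.4 in LECs, and without Itgam it was 4.19 to 4.58 and 5.88 to 6.38. Of 10 smooth muscle and pericyte genes, Kcnj8 and Abcc9 were higher in LECs and Acta2, Myh11 and Cspg4 were lower. Their sum was 32.4 to 42.2 in VECs and 80.4 to 86.6 in LECs, and without Kcnj8 it was 32.1 to 41.8 and 26.7 to 31.5. Of 7 T cell genes, 5 were tested, with 3 higher and 2 lower in LECs. The sums over all 7 were 5.80 to 7.45 in VECs and 12.3 to 13.9 in LECs, or 5.73 to 7.36 and 7.77 to 8.44 without Cd2. The part of these cells in the differences above was not tested.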

How the data were processed

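Total RNA of sorted LECs and VECs (n = 3 arrays per group) was labeled with Cy3 and hybridized to SurePrint G3 mouse arrays. The authors deposited spot intensities from Agilent Feature Extraction 12.0.3.1, background-subtracted and not scaled between arrays, and a log2 table that matched the log2 intensities minus 1 constant per array, used as an alternative. Here, spots with outlier flags were set missing, log2 was taken, replicate spots were averaged per probe and each array was centered on its 75th percentile. Of 56605 probes, between 30930 and 35510 per array were well above background, and no spot was saturated. The 33776 probes that were so on all 3 arrays of a group were fitted by lmFit and eBayes, two-sided (limma 3.58.1, R 4.3.3), checked on simulated data. Precision is limited by 3 arrays per group. For each gene the brightest tested probe (mean over 6 arrays) was used, every heparan sulfate gene was accounted for, and for wider lists up to 3 genes per direction, or all of at most 10, were named. Probe names came from GRCm38.p6 RefSeq accessions (32994 named). The genes and lists were chosen with earlier results of these data known. Slc35b2 had no named probe. One gene of the breakdown list and one of the B and plasma cell markers are not reported here and were left out of the counts. The methods name GeneSpring GX and a one-way test, without settings. The alternatives were other background, scaling, filter and test choices, the slide row as a block and each array left out.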

Additional observations from a re-analysis of the deposited data

How the results depend on the processing

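The labels, which number the samples differently in the groups, do not tell whether VEC and LEC samples came from the same mice. No paired analysis was made, and a pairing, if there was one, was ignored. Over 20 alternatives the number of heparan sulfate genes higher in LECs was 9 or 10 and the number lower was 10 to 16, the lowest being without scaling of the arrays, and 11 where the slide row was blocked. With each array left out in turn, 9 to 10 were higher, 14 to 16 were lower and the median log2 difference was between -0.40 and -0.31. Calls were lost under at least 1 alternative for Ext1, Extl1, Extl3, Glce, Hs2st1 and Sdc3, and gained for Xylt1 without VEC replicate 4. The other 19 called genes passed in the same direction under every alternative in which their probe was tested. The slide row holds LEC 6 as the single LEC array beside the VECs, so that fit rests on 1 LEC array. Signals below the lowest one well above background, 12.1 to 25.1 intensity units by array, limit Gpc3, Gpc4, Hpse and Hs3st3b1 to bounds. These bounds hold only without normexp correction. The causes of these changes were not tested.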
